A study of Mus musculus with 16 samples.

Results

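In all, 10 genes of the 24176 in a table of RPKM (read counts scaled by gene length and by library size) were followed across mouse brain regions and ages: Dcx, Sox4, Sox11, Tubb3, Stmn1, Marcksl1, Dpysl3, Dpysl5, Igfbpl1 and Tubb2b. They were chosen by name as genes of immature neurons, and all 10 are listed in the table. RNA sequencing covered 16 libraries in 8 groups of 2. Cortex at 3 weeks, striatum at 3 weeks and striatum at 12 weeks came from B6/FVB F1 mice, and hypothalamus at 8 weeks from B6/129 F1 mice. Each of these 4 sets had 2 libraries labelled wild type and 2 from mice with a conditional allele (Rai1CKO) of Rai1, the gene of a chromatin protein. The conditional mice carried Nestin-Cre in the cortical set, Gad2-Cre in both striatal sets and Vglut2-Cre in the hypothalamic set. Nestin-Cre acts in neural progenitors, Gad2-Cre in GABAergic neurons and Vglut2-Cre in glutamatergic neurons, so only part of the cells in striatum and hypothalamus could lose Rai1. The labels do not say whether the wild-type mice carried a Cre or the conditional allele, or whether replicates came from separate animals. The spread behind every p-value is that between libraries, and it may be a technical one.

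The libraries held about 21764100 to 35526300 reads, estimated from the RPKM that 1 read is worth. The region labels fitted their markers: Slc17a7, of cortical glutamatergic neurons, reached 113 RPKM or more in every cortical library and 12.0 or less elsewhere. Ppp1r1b, of striatal projection neurons, was at 160 or more in every striatal library and at 21.1 or less elsewhere, and Pmch, a hypothalamic neuropeptide, at 61.6 or more in hypothalamus and 1.33 or less elsewhere. Rai1 itself did not follow the genotype labels. Its mean was 5.02 RPKM in the cortical libraries labelled wild type and 3.65 in those labelled knockout. It was 3.50 and 6.76 in striatum at 3 weeks, 4.98 and 12.8 in striatum at 12 weeks, and 3.84 and 7.49 in hypothalamus. The table has 1 value for the whole gene, so the deleted part could not be checked, and libraries are called by their labels throughout.

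A newborn neuron leaves the cell cycle, migrates and grows an axon and dendrites before it forms synapses, and a set of genes is high during these steps. Sox4 and Sox11 encode related transcription factors of the SoxC group that switch on neuronal genes in young neurons. Tubb3 and Tubb2b encode beta-tubulins of neuronal microtubules, Dcx (doublecortin) a protein that stabilises microtubules in migrating neurons, and Stmn1 (stathmin) a protein that binds tubulin and takes microtubules apart. Dpysl3 and Dpysl5 belong to the collapsin response mediator proteins (CRMPs), which carry semaphorin signals to the cytoskeleton of the growth cone. Marcksl1 encodes an actin-binding protein of the cell membrane, and Igfbpl1 an insulin-like growth factor binding protein found in newborn neurons. In the adult forebrain, neurogenesis is best described in the hippocampus and in the subventricular zone beside the striatum. Several of these genes, such as the tubulins and Stmn1, stay on in mature neurons.

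Promoters of 4 genes are shown because they span the outcomes described below: Marcksl1 had the largest change with age, Sox4 and Dpysl5 changed less, and Sox11, the relative of Sox4, did not pass the test. Each is the 250 bases before the annotated start of the gene, 5′ to 3′ on the strand of the gene, from RefSeq on build GRCm38.p6, whereas the expression table was made on mm9. Capitals mark matches, on either strand, to 5 short motifs. SOX proteins bind ACAAAG, and a variant of that site reads ACAATG. Proneural factors bind E-boxes such as CAGCTG, of which another form is CAGATG. The GC box, bound by general factors, was searched as GGGCGG. No match overlapped a match to another motif in these windows.
Marcksl1 (chr4:129513331-129513580, plus strand): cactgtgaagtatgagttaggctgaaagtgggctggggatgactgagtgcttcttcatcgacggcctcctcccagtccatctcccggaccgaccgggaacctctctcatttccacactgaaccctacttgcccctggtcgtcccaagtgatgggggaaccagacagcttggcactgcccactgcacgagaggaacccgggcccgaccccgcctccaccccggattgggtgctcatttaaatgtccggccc
Sox4 (chr13:28953700-28953949, minus strand): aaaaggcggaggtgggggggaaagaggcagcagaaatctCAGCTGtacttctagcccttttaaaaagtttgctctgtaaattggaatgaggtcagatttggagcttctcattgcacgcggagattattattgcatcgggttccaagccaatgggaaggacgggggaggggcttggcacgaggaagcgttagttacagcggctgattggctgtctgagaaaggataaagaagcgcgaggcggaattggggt
Sox11 (chr12:27342719-27342968, minus strand): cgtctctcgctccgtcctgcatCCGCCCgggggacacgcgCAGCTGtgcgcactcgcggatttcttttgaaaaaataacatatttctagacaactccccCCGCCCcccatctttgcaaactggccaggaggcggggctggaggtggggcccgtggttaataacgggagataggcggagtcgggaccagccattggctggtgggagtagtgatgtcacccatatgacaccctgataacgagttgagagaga
Dpysl5 (chr5:30711314-30711563, plus strand): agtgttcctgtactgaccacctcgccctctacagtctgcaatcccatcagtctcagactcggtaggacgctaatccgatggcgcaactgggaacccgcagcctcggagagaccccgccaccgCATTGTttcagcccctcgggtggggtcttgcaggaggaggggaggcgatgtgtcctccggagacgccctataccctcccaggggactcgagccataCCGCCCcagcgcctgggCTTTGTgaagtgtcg

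Promoters of 6 of the 10 genes were matched by symbol: these 4, Tubb3 and Dcx. Not every chromosome was included in that match. The Marcksl1 window held no match to any of the 5 motifs, and its GC content was 60.4%, against a median of 52.4% over the 32851 windows of the RefSeq table. Sox4 and Sox11 each held CAGCTG, which 13% of all windows hold. Dpysl5 held ACAAAG, which 16.5% of all windows hold. It also held the variant ACAATG (10.7% of windows) and the GC box (32.7%), which Sox11 held at 2 places. Tubb3 held that variant and the GC box, each at 2 places, and 1 of the 2 annotated windows of Dcx held ACAAAG. The E-box form CAGATG, found in 14.4% of all windows, was in none of the 6. A match here is a run of letters, not a measured binding site, and no binding was measured in these samples.

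Across all 16 libraries the 10 genes covered a wide range of levels per length. Tubb3, Tubb2b, Stmn1 and Marcksl1 were abundant, with highest values of 167.6, 97.7, 68.1 and 56.4 RPKM. Dcx, Sox4, Sox11, Dpysl3 and Dpysl5 lay between 1.02 and 9.50 RPKM. Igfbpl1 was at 0.116 to 1.02, or about 7.35 to 99.9 reads with its longest annotated transcript, so its values carry the largest counting error. The first 9 genes reached 1 RPKM in every library and were tested. Igfbpl1 did so in 1 library only, and the test requires 2.

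**Figure D1:**
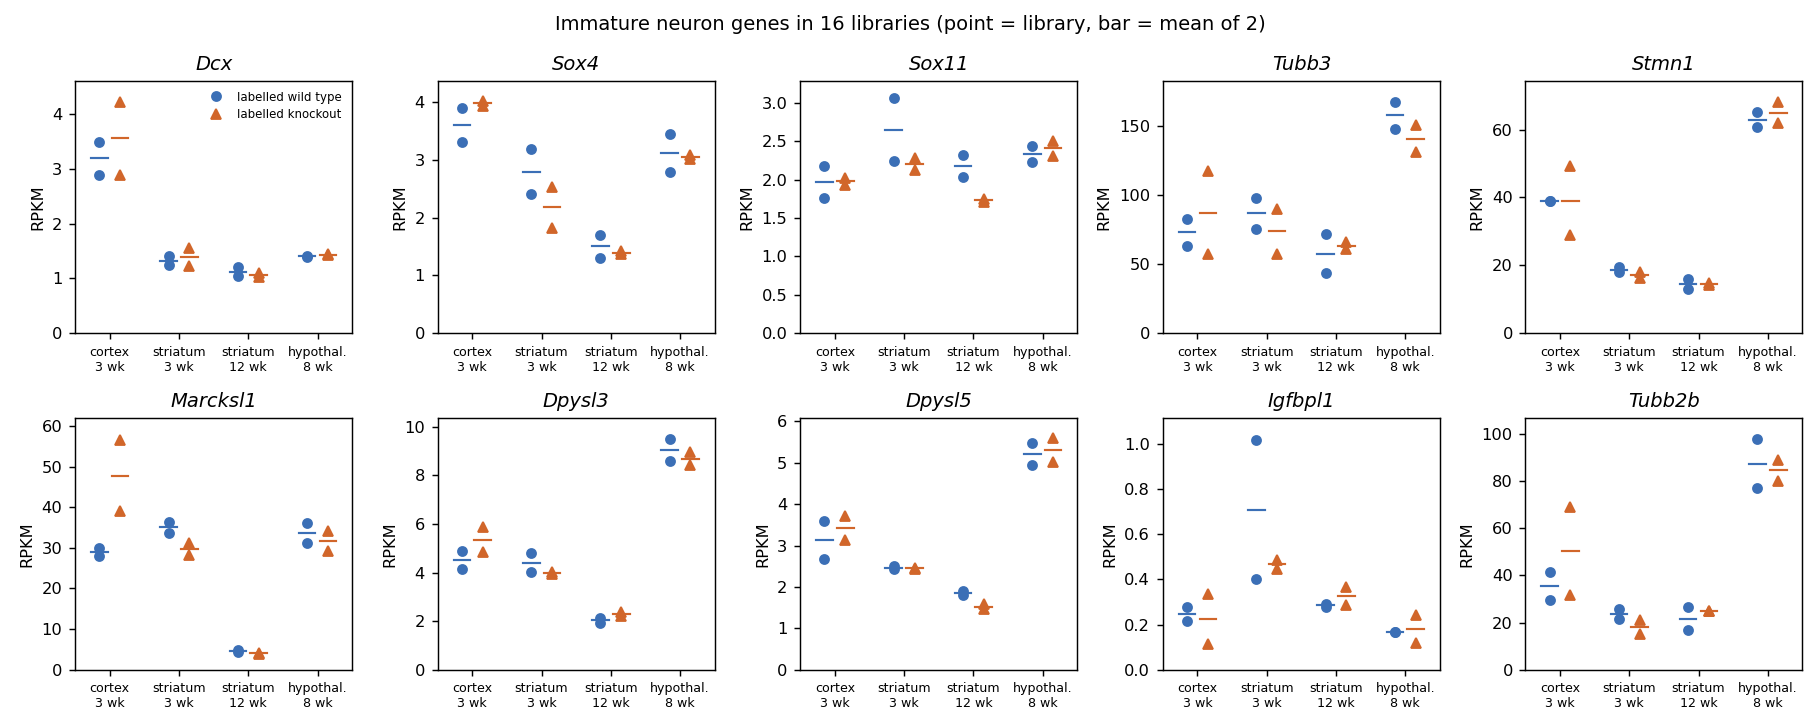
RPKM of the 10 genes (one panel each, linear axis from 0) in the 4 region and age sets; circles are libraries labelled wild type, triangles libraries labelled knockout, and bars means of 2 libraries. Marcksl1 is at 3.99 to 4.94 in striatum at 12 weeks and at 27.9 or above everywhere else. In these values, without further scaling, Tubb3, Stmn1, Dpysl3, Dpysl5 and Tubb2b are higher in every hypothalamic library than in any other.

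The first comparison asked how these genes differ between juvenile (3 weeks) and adult (12 weeks) striatum. Each age was its own set of libraries, with an estimated 31293000 to 35526300 reads at 3 weeks and 21769600 to 23576400 at 12 weeks. Age therefore cannot be told apart from other differences between these sets. Rises and falls with age below are differences between them. Of the 9 tested genes 4 fell with age and 0 rose: Marcksl1 by 2.76 on the log2(RPKM + 0.5) scale, Dpysl3 by 0.81, Sox4 by 0.60 and Dpysl5 by 0.44. Dcx, the usual marker of migrating young neurons, did not pass, nor did Sox11, Stmn1, Tubb3 or Tubb2b. Of all 12348 genes tested, 25.1% were lower at 12 weeks and 10.5% higher (limma, adjusted p under 0.05, 4 libraries against 4). The median log2 difference was -0.40 over the 9 genes and -0.13 over all genes. After median-ratio scaling, which centres the genes between libraries, 21.7% of all genes were lower and 21.9% higher, and the 9 still gave 4 lower and 0 higher.

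Marcksl1 had the second most negative difference of all 12348 genes. In striatum at 3 weeks it was at 36.4 and 33.7 RPKM in the libraries labelled wild type and at 28.3 and 31.1 in those labelled knockout. At 12 weeks it was at 4.94 and 4.35 in the libraries labelled wild type and at 3.99 and 4.04 in those labelled knockout. Every library at 3 weeks was thus far above every library at 12 weeks, and the mean was 7.47-fold higher at 3 weeks. The log2 difference of -2.76 had an SE of 0.12 (adjusted p = 2.45e-09) and lay between -2.87 and -2.53 under all 18 alternative settings. About 1560 to 2070 reads stood behind the values at 3 weeks and about 142 to 172 at 12 weeks.

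The CRMP gene Dpysl3 fell by 0.81 on the log2 scale. It was at 4.01 and 4.81 RPKM in the wild-type libraries at 3 weeks and at 3.92 and 4.004 in those labelled knockout. At 12 weeks it was at 2.14 and 1.93 in the wild-type libraries and at 2.21 and 2.38 in those labelled knockout. The ages did not overlap (log2 difference -0.81, SE 0.10, adjusted p = 3.35e-05). Dpysl5 had a narrow range at 3 weeks, with 2.51 and 2.43 RPKM with the wild-type label and 2.44 and 2.47 with the knockout label. At 12 weeks it was at 1.91 and 1.798 and at 1.46 and 1.59, again below every younger library (-0.44, SE 0.10, adjusted p = 0.00375). With libraries scaled to an equal sum of RPKM its difference was -0.24 and did not pass (adjusted p = 0.0984).

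Sox4 was at 2.40 and 3.18 RPKM in the wild-type libraries at 3 weeks and at 1.82 and 2.53 in the knockout libraries. At 12 weeks it was at 1.30 and 1.71 and at 1.42 and 1.37. The ages did not overlap, although the lowest juvenile library (1.82) and the highest adult library (1.71) were close (log2 difference -0.60, SE 0.12, adjusted p = 0.00164). Its relative Sox11 was at 2.24 and 3.06 with the wild-type label and 2.12 and 2.29 with the knockout label at 3 weeks. At 12 weeks Sox11 was at 2.04 and 2.33 and at 1.71 and 1.75, so the adult wild-type libraries lay within the juvenile range (-0.25, SE 0.10, adjusted p = 0.0677). Without replicate 1 of the 3-week libraries labelled wild type, Sox11 passed (-0.34, adjusted p = 0.0209). Both genes have a single exon, and the smallest library held about 135 reads of Sox4 and 316 of Sox11.

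Among the microtubule genes no difference passed. Dcx was at 1.24 and 1.41 RPKM with the wild-type label and 1.55 and 1.22 with the knockout label at 3 weeks, and at 1.21 and 1.04 and 1.02 and 1.10 at 12 weeks. The ages did not overlap, with 1.22 as the lowest juvenile and 1.21 as the highest adult value, and the log2 difference was -0.22 (SE 0.11, 95% interval -0.46 to 0.02, adjusted p = 0.146). Stmn1 was at 17.9, 19.4, 16.3 and 17.9 RPKM in the juvenile libraries, wild type first, and at 12.9, 15.9, 14.2 and 14.7 in the adult ones. These did not overlap either, and the difference was -0.30 (SE 0.14, 95% interval from -0.61 to just above 0, adjusted p = 0.109).

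Tubb3 was at 75.4 and 97.9 RPKM with the wild-type label and 57.6 and 89.8 with the knockout label at 3 weeks, and at 43.3 and 71.8 and 65.6 and 60.5 at 12 weeks. The ages overlapped (-0.40, SE 0.23, interval -0.89 to 0.09, adjusted p = 0.181). Tubb2b was at 21.4, 25.7, 15.3 and 20.9 RPKM at 3 weeks and at 16.7, 26.5, 24.8 and 25.0 at 12 weeks, in the same order. It was the only tested gene of the 9 with a positive estimate (0.16, SE 0.22, adjusted p = 0.606). With an equal sum of RPKM that estimate was 0.41 and passed (adjusted p = 0.0467), and without wild-type replicate 2 at 12 weeks it was -0.0053. The smallest sum of RPKM over all genes, 82332, was in wild-type replicate 1 at 12 weeks, which also held the lowest adult values of Tubb3, Tubb2b and Stmn1. The sources used here do not say how reads shared between tubulin genes were assigned, so values of near-identical copies such as Tubb2a and Tubb2b are uncertain.

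Igfbpl1 was at 0.401 and 1.02 RPKM with the wild-type label and 0.447 and 0.486 with the knockout label at 3 weeks. At 12 weeks it was at 0.277, 0.293, 0.288 and 0.365, all below the younger libraries, with a mean 1.92-fold higher at 3 weeks. In a fit of all 20473 genes with no filter on low values its difference was -0.40 (SE 0.15, adjusted p = 0.0755) and did not pass. Counted without a test, 7 of the 10 genes had all 4 adult libraries below all 4 juvenile ones. None of the 10 had the reverse. Among all tested genes 19.2% were lower in this sense and 9.84% higher. This and the later counts of libraries without overlap use RPKM without further scaling and were not repeated under another one. The factors of the median-ratio scaling were 0.843 to 1.09 in the juvenile and 0.752 to 0.939 in the adult striatal libraries. Narrow separations, such as that of Dcx, can therefore depend on scaling.

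**Figure D2:**
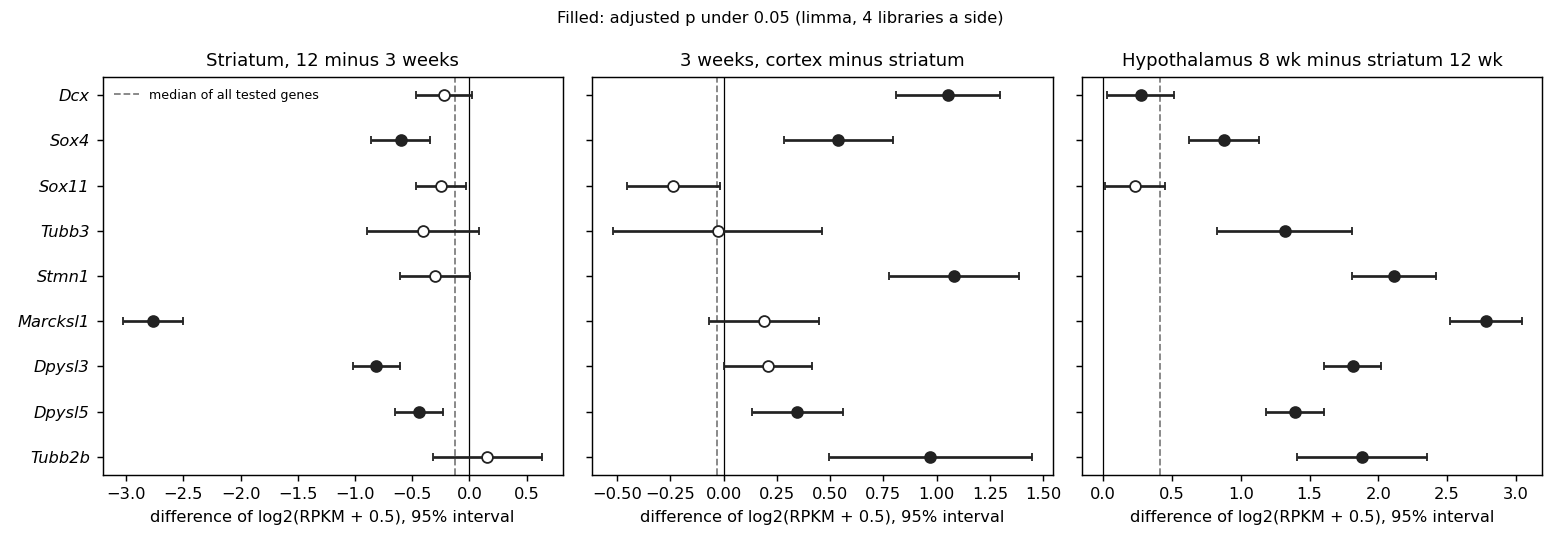
Differences of log2(RPKM + 0.5) with 95% intervals for the 9 tested genes in striatum at 12 minus 3 weeks, cortex minus striatum at 3 weeks, and hypothalamus at 8 weeks minus striatum at 12 weeks; filled points have an adjusted p under 0.05, the dashed line is the median of all tested genes, and each panel has its own horizontal scale. Marcksl1 stands at -2.76 in the first panel and at 2.78 in the third, while Sox11 is open in all 3.

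The age difference was then fitted in each genotype label on its own, with 2 libraries a side. In the wild-type libraries Marcksl1 (-2.79), Dpysl3 (-0.95) and Sox4 (-0.72) fell, with adjusted p-values of 2.16e-07, 3.05e-04 and 0.00671, against 24.4% lower and 7.16% higher among all genes. Under the knockout label, Marcksl1 (-2.74), Dpysl3 (-0.68) and Dpysl5 (-0.54) fell, with adjusted p-values of 2.92e-07, 0.00568 and 0.0219, against 6.8% lower and 4.98% higher among all genes. Dpysl5 in wild type (-0.34, adjusted p = 0.0810) and Sox4 in knockout (-0.49, adjusted p = 0.0795) missed the threshold. The difference between the genotypes in the age effect passed for 0 of the 9 genes and for 0% of all genes, and 0 of the 9 had an unadjusted p under 0.05. For Marcksl1 that difference was 0.05 (SE 0.24, 95% interval -0.47 to 0.57), for Sox4 0.23 (SE 0.24) and for Dpysl5 -0.21 (SE 0.20).

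Some of these within-label calls rested on single libraries. In wild type, Sox4 no longer passed without replicate 2 at 3 weeks (-0.55, adjusted p = 0.0903) or replicate 1 at 12 weeks (-0.57, adjusted p = 0.0819). In the libraries labelled knockout, Dpysl3 no longer passed without replicate 1 at 12 weeks (-0.63, adjusted p = 0.0649). Dpysl5 there missed the threshold whichever of the 4 was dropped. Its adjusted p was 0.0626 and 0.0888 on leaving out replicates 1 and 2 at 3 weeks, and 0.152 and 0.0800 for those at 12 weeks. Marcksl1 passed in both genotypes without any 1 of these libraries.

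Relatives of the 10 genes were compared in the same fit. All 5 CRMP genes fell with age, the other 3 being Dpysl4 (-0.63, adjusted p = 0.00663), Dpysl2 (-0.51, adjusted p = 0.00787) and Crmp1 (-0.34, adjusted p = 0.0384). With median-ratio scaling 4 of the 5 were called and with an equal sum of RPKM 3. Both MARCKS genes fell, with Marcks itself, which encodes a substrate of protein kinase C, at 13.02 to 17.3 RPKM at 3 weeks and 7.03 to 8.96 at 12 weeks (-0.91, adjusted p = 4.64e-05). The SoxC group was split: Sox4 fell, Sox11 did not pass and Sox12, the third factor of the group, rose (0.34, adjusted p = 0.0460).

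Of the doublecortin family, Dclk1, a kinase with doublecortin domains, fell (-0.59, adjusted p = 8.89e-04), while Dclk2 (-0.30) and Dclk3 (0.30) did not pass; 1 member of that family rose under either other scaling. Among stathmins, Stmn2, a gene of growing axons, fell (-0.73, adjusted p = 3.83e-04) and Stmn4 rose (0.44, adjusted p = 0.00459), and Stmn1 and Stmn3 did not pass. Among 7 tested beta-tubulins Tubb4b (-0.91) and Tubb4a (-0.55) fell, and 0 rose, whereas with an equal sum of RPKM 1 fell and 1, Tubb2b, rose. Of the IGFBP family, which Igfbpl1 resembles, 5 of 6 tested genes fell, by 0.71 to 1.02, and Igfbp6 rose (0.76, adjusted p = 0.00999). The families therefore did not move as wholes, except the MARCKS pair, under all 3 scalings, and the CRMPs in the fit as reported.

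The alpha-tubulins, partners of Tubb3 and Tubb2b in the microtubule, went the other way where they changed. Tuba1c rose by 3.50 (SE 0.18, adjusted p = 1.15e-08) and Tuba1b by 1.51 (SE 0.19, adjusted p = 4.64e-05), and Tuba1a, Tuba4a and Tuba8 did not pass; with either other scaling 3 rose. Tuba1c was at 2.30 to 3.14 RPKM in the 4 striatal libraries at 3 weeks and at 23.6 to 144.8 in all 12 others. Tuba1b was at 22.1 to 28.4 in those 4 and at 58.6 or more in the others. These genes have near-identical copies, and whether the 3-week striatal libraries differ from the rest in read assignment was not tested. The estimated depth of these 4 libraries, 31293000 to 35526300 reads, was above that of all 12 others.

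**Figure D3:**
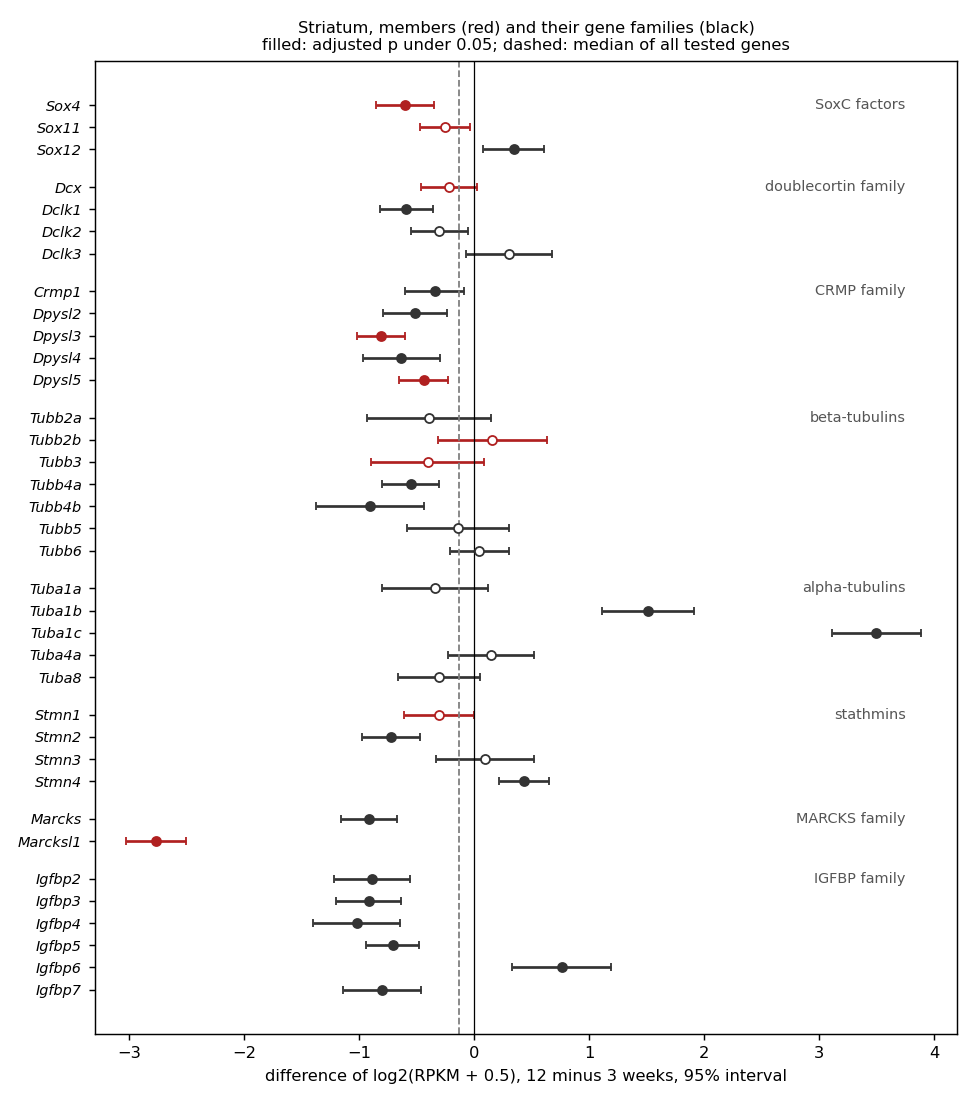
Differences of log2(RPKM + 0.5) between 12 and 3 weeks in striatum, with 95% intervals, for the members (red) and the other tested genes of their families (black); filled points have an adjusted p under 0.05 and the dashed line is the median of all tested genes at -0.13. Marcksl1 at -2.76 and Tuba1c at 3.50 lie farthest from 0, and all 5 CRMP genes lie below it.

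Other genes of immature neurons were counted from a list of 20, of which 18 were tested. Of these, 7 fell and 1 rose, against 25.1% and 10.5% of all genes, with a median of -0.08 against -0.13 for all genes. The split depended on the scaling: 6 fell and 3 rose with median-ratio scaling, and 5 fell and 5 rose with an equal sum of RPKM. Nnat, a small membrane protein of developing brain, fell (-0.89, adjusted p = 9.06e-04), as did Cd24a, a surface protein of neuroblasts (-0.72, adjusted p = 0.00328), and the adhesion molecule Ncam1 (-0.42, adjusted p = 0.00360). St8sia4, an enzyme that adds polysialic acid to Ncam1, rose (0.40, adjusted p = 0.00571). Of 16 genes of the neuronal migration machinery 1 fell, Nde1 (-1.04, adjusted p = 2.51e-05), which encodes a dynein regulator. Of 13 tested semaphorin signalling genes, Fyn (-1.12) and Sema3d (-0.62) fell, and Sema3a (0.31) and Nrp2 (0.25) rose.

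Genes of neuroblasts and progenitors gave no common direction. Dlx1, a homeobox factor of GABAergic progenitors, fell (-0.45), as did the growth factor receptor Egfr (-0.39), and Dlx6, a factor of GABAergic neurons, rose (0.86). The balance of lower and higher calls in that list turned with median-ratio scaling. Of 14 proliferation genes only 4 reached the expression filter. Of these 4, Ccna2 (-0.51) and Mcm5 (-0.42) fell and Tyms rose (1.91, adjusted p = 1.10e-06 by limma). Tyms was at 1.93 to 3.28 RPKM in the 4 juvenile striatal libraries and at 6.04 to 12.1 in all others, as with Tuba1c. Among the genes below the filter, most of those without overlap of libraries were lower at 12 weeks. Their means were 1.62-fold to 4.05-fold higher at 3 weeks. Not all went this way, the values were low, and none of these was tested. Markers of mature neurons had 2 lower and 1 higher of 16 (median -0.05), and 2 lower and 4 higher with median-ratio scaling. Spiny projection neuron markers had 0 lower and 2 higher of 12 (median 0.03).

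Glial lists moved in the same comparison as Marcksl1. All 12 myelin genes fell, with a median of -2.24, and their summed level went from 2760 to 3637 RPKM in the juvenile libraries to 536.7 to 687.9 in the adult ones. Mog, a myelin surface protein, fell by 2.75, Mobp by 2.71 and Mal by 2.65. Of 12 oligodendrocyte precursor genes 11 fell (median -1.13), with sums of 124.7 to 163 RPKM at 3 weeks and 43.8 to 52.5 at 12 weeks. Gpr17, of cells that begin to differentiate, fell by 2.51 and Enpp6 by 2.06. Of 10 astrocyte genes 8 fell, as did 8 of 9 tested microglia genes, with medians of -0.85 and -0.54. Myelin and precursor markers were still detected at 12 weeks, Mog at 7.45 to 11.1 RPKM and Gpr17 at 5.33 to 7.08.

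The part of these other cell types in the fall of Marcksl1 was not tested. Mean Marcksl1 in cortex, juvenile striatum, hypothalamus and adult striatum was 38.3, 32.4, 32.7 and 4.33 RPKM. In the same order the myelin sum averaged 1055, 3044, 900 and 612, the precursor sum 109, 138, 112 and 47.9, and the astrocyte sum 499, 518, 501 and 315. In these RPKM values, which are without further scaling, Marcksl1 and each of these 3 sums were lowest in adult striatum. They had no overlap there with the libraries of any other set. The factors of the median-ratio scaling were 0.752 to 0.939 in adult striatum and 1.15 to 1.30 in hypothalamus. Separations of sums can therefore depend on scaling, and they were not repeated under another one. The low level in adult striatum was not particular to glial lists. The CRMP sum was at 46.0 to 56.9 in adult striatum and at 69.4 to 111.3 elsewhere. The semaphorin signalling sum was at 55.4 to 65.6 there and at 67.5 to 99.0 elsewhere. The microglia and endothelial sums of adult striatum overlapped other sets. The share of all genes with such a profile was not counted. The summed level of 16 mature neuron genes averaged 682 in juvenile and 618 in adult striatum, with overlapping libraries. These are whole tissues, so fewer cells of a type and less RNA per cell cannot be told apart.

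**Figure D4:**
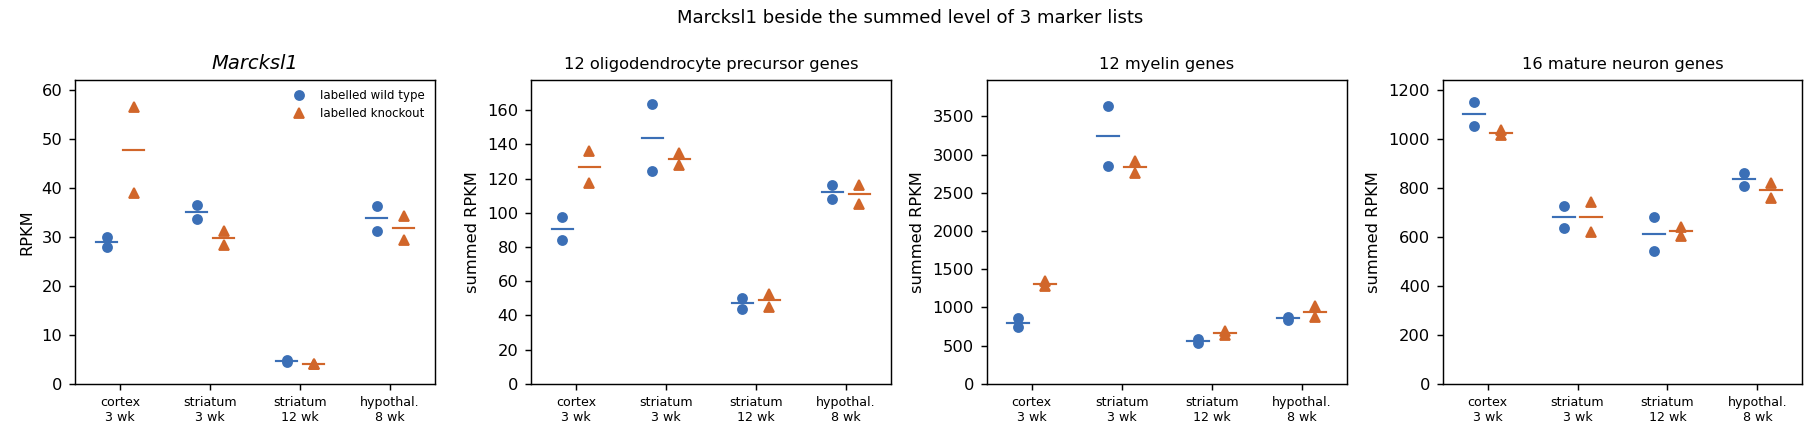
RPKM of Marcksl1 and the summed RPKM of 12 oligodendrocyte precursor, 12 myelin and 16 mature neuron genes in the 4 sets (linear axes from 0); circles are libraries labelled wild type, triangles libraries labelled knockout, bars means of 2 libraries. Without further scaling, adult striatum is lowest for Marcksl1 (3.99 to 4.94), for the precursor sum (43.8 to 52.5) and for the myelin sum (536.7 to 687.9). The myelin sum is highest in juvenile striatum (2760 to 3637).

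The second comparison set cortex against striatum at 3 weeks, at the same age and in the same strain. The libraries labelled knockout differed in Cre driver, Nestin-Cre in cortex and Gad2-Cre in striatum. Of the 9 genes 5 were higher in cortex and 0 lower: Stmn1 by 1.08, Dcx by 1.05, Tubb2b by 0.97, Sox4 by 0.54 and Dpysl5 by 0.35 on the log2 scale. Of all genes, 26.2% were higher and 26% lower, with a median of -0.03 against 0.35 over the 9. Counted by libraries that did not overlap, 5 of the 10 genes were higher and 1, Igfbpl1, lower, against 23.1% and 16.7% of all genes. Of the 4 genes that fell with age in striatum, Sox4 and Dpysl5 were among these 5, and Marcksl1 (0.19, 95% interval -0.07 to 0.45, adjusted p = 0.201) and Dpysl3 (0.21, adjusted p = 0.0855) missed the threshold.

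Dcx was at 3.50 and 2.89 RPKM in the cortical libraries labelled wild type and at 2.90 and 4.23 in those labelled knockout, against 1.22 to 1.55 in striatum. No cortical library overlapped a striatal one, and the mean was 2.49-fold higher (SE of the log2 difference 0.11, adjusted p = 4.02e-06). Stmn1 was at 39.1, 39.0, 49.2 and 28.9 in the 4 cortical libraries, wild type first, against 16.3 to 19.4 in striatum (2.18-fold, SE 0.14, adjusted p = 2.49e-05). Tubb2b was at 29.8, 41.7, 68.9 and 31.8 in cortex, above the striatal range of 15.3 to 25.7 (SE 0.22, adjusted p = 0.00228). In all 3 the highest cortical value belonged to a library labelled knockout.

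Sox4 was at 3.30, 3.89, 3.93 and 4.02 RPKM in cortex, above the 1.82 to 3.18 of striatum (SE 0.12, adjusted p = 0.00181). Dpysl5 was at 2.68, 3.60, 3.72 and 3.15 in cortex, just above the striatal range of 2.43 to 2.51 (SE 0.10, adjusted p = 0.00958). Its call was lost without wild-type cortical replicate 2 (0.25, adjusted p = 0.0520). Sox11 was lower in cortex without passing, at 1.76 to 2.18 against 2.12 to 3.06 (-0.24, adjusted p = 0.0643). It passed without cortical wild-type replicate 2 (-0.30, adjusted p = 0.0444) or striatal wild-type replicate 1 (-0.33, adjusted p = 0.0167).

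Tubb3 had the same mean in both regions, 80.2 RPKM, with cortical libraries from 57.5 to 117 and striatal ones from 57.6 to 97.9 (-0.03, SE 0.23, 95% interval -0.52 to 0.46). Marcksl1 and Dpysl3 passed without cortical knockout replicate 2, at 0.32 (adjusted p = 0.0300) and 0.27 (adjusted p = 0.0461). With an equal sum of RPKM they also passed, at 0.36 each. Igfbpl1 went the other way, with 0.116 to 0.338 in cortex and 0.401 to 1.02 in striatum and no overlap. In the fit with no filter its difference was -0.54 (SE 0.15, adjusted p = 0.0138).

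The relatives showed the same kind of split between the 2 juvenile regions. Stmn2 (1.597, adjusted p = 9.46e-08) and Stmn3 (0.78, adjusted p = 0.00469) were higher in cortex, as was Crmp1 (0.69, adjusted p = 2.65e-04) and Sox12 (0.72, adjusted p = 2.83e-04). Marcks was lower (-0.51, adjusted p = 0.00174). Of the doublecortin family Dclk1 was higher (0.38) and Dclk2 (-0.70) and Dclk3 (-1.07) lower. Of the 18 other immature neuron genes tested, 7 were higher and 5 lower, with a median of 0.02, against 26.2% and 26% of all genes. Of 16 mature neuron genes 10 were higher and 1 lower, and all 12 myelin genes were lower in cortex (median -1.59).

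The third comparison set hypothalamus at 8 weeks against striatum at 12 weeks, where region, age, strain and Cre driver differ together and cannot be told apart. Of the 9 genes 8 were higher in hypothalamus: Marcksl1 by 2.78, Stmn1 by 2.11, Tubb2b by 1.88, Dpysl3 by 1.81, Dpysl5 by 1.40, Tubb3 by 1.32, Sox4 by 0.88 and Dcx by 0.27. Most genes shared this direction: 59.3% of all genes were higher and 13.1% lower, with a median of 0.42. Without overlap of libraries, 8 of the 10 genes were higher and 1 lower, against 57% and 12.5% of all genes. After median-ratio scaling 31.2% were higher and 31.5% lower, and the smallest of the 8 turned, with Dcx at -0.08 (adjusted p = 0.651). The difference of Marcksl1 was above that of 99.1% of all tested genes, that of Stmn1 above 97.6% and that of Dcx above 38.6%.

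Marcksl1 was at 31.2 and 36.2 RPKM in the hypothalamic libraries labelled wild type and at 29.3 and 34.2 in those labelled knockout, against 3.99 to 4.94 in adult striatum. This 7.56-fold difference (SE of the log2 difference 0.12, adjusted p = 2.05e-10) stood beside one of 7.47-fold between juvenile and adult striatum, and the hypothalamic and juvenile striatal libraries overlapped. The high level was therefore not limited to the juvenile sets. The myelin sum was 839.9 to 1017 in these hypothalamic libraries and the precursor sum 105.1 to 116.4.

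Stmn1 was at 60.8, 65.2, 61.9 and 68.1 RPKM in hypothalamus, wild type first, and at 12.9 to 15.9 in adult striatum (4.44-fold, SE 0.14, adjusted p = 1.51e-08). Tubb2b was at 77.3, 97.7, 80.1 and 89.1, against 16.7 to 26.5 (3.70-fold, SE 0.22, adjusted p = 4.46e-06). Tubb3 was at 147, 168, 131 and 151, against 43.3 to 71.8 (2.47-fold, SE 0.23, adjusted p = 1.56e-04). In RPKM without further scaling, these 3 cytoskeletal genes were thus at their highest in the hypothalamic libraries, above every cortical and juvenile striatal one. The lowest hypothalamic Tubb2b value (77.3) and the highest cortical one (68.9) were in libraries with median-ratio factors of 1.22 and 1.03. That separation can therefore depend on scaling.

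Dpysl3 was at 8.58, 9.50, 8.44 and 8.95 RPKM in hypothalamus, against 1.93 to 2.38 in adult striatum (4.09-fold, SE 0.10, adjusted p = 1.53e-09). Dpysl5 was at 5.48, 4.94, 5.59 and 5.01, against 1.46 to 1.91 (3.11-fold, SE 0.10, adjusted p = 2.62e-08). Both CRMP genes also exceeded every juvenile library of cortex and striatum. Sox4 was at 2.79, 3.44, 3.09 and 3.01, against 1.30 to 1.71 (2.13-fold, SE 0.12, adjusted p = 1.64e-05), within reach of the juvenile values. Sox11 was at 2.23, 2.44, 2.51 and 2.31 and overlapped adult striatum (0.23, SE 0.10, adjusted p = 0.0527).

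Dcx was nearly constant in hypothalamus, at 1.42, 1.39, 1.45 and 1.42 RPKM, against 1.02 to 1.21 in adult striatum. Its small difference passed narrowly (SE 0.11, adjusted p = 0.0441) and was lost on leaving out any of the 8 libraries other than striatal wild-type replicate 1, with log2 differences of 0.23 to 0.29 and adjusted p-values of 0.0702 to 0.116. Sox11 reversed to -0.17 with median-ratio scaling and to -0.04 with an equal sum of RPKM, neither past the threshold. It passed without striatal wild-type replicate 2 at 12 weeks (0.27, adjusted p = 0.0457). Igfbpl1 was at 0.169, 0.165, 0.121 and 0.243 in hypothalamus, below all adult striatal libraries, and its difference in the fit with no filter was -0.26 (adjusted p = 0.167).

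All 5 CRMP genes, both MARCKS genes and all 7 tested beta-tubulins were higher in hypothalamus than in adult striatum. With either other scaling 6 beta-tubulins were called. Among stathmins, Stmn2 was higher by 2.60 (adjusted p = 2.85e-10). The doublecortin relatives went the other way, with Dclk1 at -0.56 and Dclk3 at -2.01, and Dclk2 not past the threshold. Of the 18 other immature neuron genes tested 11 were higher and 4 lower, against 59.3% and 13.1% of all genes. Nnat was higher by 3.32 (adjusted p = 5.53e-10 by limma) and St8sia4 by 1.30. After median-ratio scaling 3 of the 5 CRMP genes were called.

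The order of the 4 sets by mean level was shared by several genes. Stmn1 and Dpysl5 ran from hypothalamus (64.0 and 5.25 RPKM) over cortex (39.0 and 3.29) and juvenile striatum (17.9 and 2.46) to adult striatum (14.4 and 1.69), and no neighbours in that order overlapped. Dpysl3 followed the same order, with means of 8.87, 4.93, 4.19 and 2.17, but cortex and juvenile striatum overlapped. Sox4 went from cortex (3.79) over hypothalamus (3.08) and juvenile striatum (2.48) to adult striatum (1.45), and only the last step had no overlap between neighbours. Dcx was highest in cortex (3.38), then hypothalamus (1.42) and juvenile striatum (1.36), which overlapped, and adult striatum (1.09). This order and the others given here and below are those of the RPKM values without further scaling. With median-ratio scaling the log2 difference of Dcx between hypothalamus and adult striatum turned to -0.08.

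For Marcksl1, cortex (38.3), hypothalamus (32.7) and juvenile striatum (32.4) overlapped and adult striatum (4.33) stood apart. For Tubb3, hypothalamus (149) stood apart, and cortex, juvenile striatum and adult striatum (60.3) overlapped. Tubb2b went from hypothalamus (86.0) and cortex (43.0) to adult (23.3) and juvenile striatum (20.8), where the last pair overlapped. Sox11 had the flattest profile, with means of 2.43 in juvenile striatum, 2.37 in hypothalamus, 1.97 in cortex and 1.96 in adult striatum; of these neighbours only hypothalamus and cortex did not overlap. Igfbpl1 was highest in juvenile striatum (0.588), which stood apart from adult striatum (0.306), cortex (0.236) and hypothalamus (0.174).

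Across the 8 group means of log2(RPKM + 0.5), the 9 tested genes were alike to differing degrees. Of the 36 pairs 34 had a positive Pearson correlation, with a median of 0.63, from -0.28 for Dcx with Sox11 to 0.97 for Dpysl3 with Dpysl5. With the mean of all 9 standardized profiles, Dpysl3 had 0.97, Dpysl5 0.97 and Stmn1 0.94, and Sox11 and Dcx had the lowest values at 0.47 and 0.46. Dcx, the best known marker of the 10, was thus among the least like the others. The groups share libraries between genes and differ in depth, so these values are descriptions. Each gene is also part of the mean it was compared with. Correlations over all pairs of genes were not computed. Since 59.3% of all genes were higher in hypothalamus than in adult striatum, positive values cannot be called particular to these genes. Of 6456 eligible genes outside the set, Dos was most like the mean profile (0.99), followed by Tmem135, Mb21d2, Igsf8, Wdr1, Tango2, Atp6v1b2, Rab3a, Ntrk2 and, with 0.98, Tlcd1. Rab3a is a protein of synaptic vesicles and Ntrk2 the receptor of the neurotrophin BDNF, and neither is a marker of immature neurons.

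The remaining comparisons were between the genotype labels within each set. No difference passed for any of the 9 tested genes in any of the 4 sets or in their mean (limma, adjusted p of 0.227 or more). Of all genes, 0.0405% were called in cortex, 0.0324% in striatum at 3 weeks, 0.0405% in striatum at 12 weeks, 0.0081% in hypothalamus and 0.373% in the mean. At an unadjusted p under 0.05 the counts of the 9 were 1 in cortex and 0 in each other comparison. In the mean of the 4 sets, estimates ran from -0.11 for Sox11 (95% interval -0.26 to 0.05) to 0.06 for Tubb2b (-0.28 to 0.39). The interval of Dcx was -0.14 to 0.21 and that of Marcksl1 -0.14 to 0.23.

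The gene with the unadjusted p under 0.05 was Marcksl1 in cortex. It was at 27.9 and 30.0 RPKM in the libraries labelled wild type and at 56.4 and 39.0 in those labelled knockout. The groups did not overlap. In that set 2 of the 10 genes, Marcksl1 and Sox4, were higher in this sense and 0 lower, against 9.3% and 21.6% of all genes. The difference was 0.69 (SE 0.17, 95% interval 0.32 to 1.06, adjusted p = 0.227 by limma). Without knockout replicate 1 it was 0.42, and without knockout replicate 2 it was 0.95.

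In the same cortical libraries the myelin sum was 737.5 and 860.4 RPKM under the wild-type label and 1342 and 1278 under the knockout label, and the precursor sum 84.3 and 97.3 against 136 and 117. All 12 myelin genes had positive estimates (median 0.72) and 11 of 12 precursor genes did (median 0.45), and 0 of either list passed. With median-ratio scaling 3 myelin genes and 1 precursor gene passed. Knockout replicate 1, with the highest Marcksl1 value, also had the highest Tubb3 (117), Tubb2b (68.9), Stmn1 (49.2) and Dpysl3 (5.86) values in cortex. Knockout replicate 2 had the lowest Tubb3 (57.5) and Stmn1 (28.9) values, so the 2 replicates of this group lay on both sides of wild type. The part of these library differences in the Marcksl1 value was not tested.

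In juvenile striatum 8 of the 9 estimates were negative, from -0.38 for Tubb2b to 0.05 for Dcx, in a set whose median over all genes was -0.13. Without overlap, 4 of the 10 genes (Stmn1, Marcksl1, Dpysl3 and Tubb2b) were lower and 0 higher, against 23.9% and 10.3% of all genes. In adult striatum estimates ran from -0.26 for Sox11 to 0.24 for Tubb2b. Sox11 was at 2.04 and 2.33 with the wild-type label and 1.71 and 1.75 with the knockout label there, and did not pass (SE 0.14, adjusted p = 0.989). Without overlap, 3 genes (Sox11, Marcksl1 and Dpysl5) were lower there and 1 (Dpysl3) higher, against 8.16% and 19.9% of all genes. In hypothalamus all 9 estimates lay between -0.16 and 0.04, and without overlap 1 gene (Dcx) was higher and 0 lower, against 9.65% and 24.6% of all genes. The intervals show what 2 libraries a side could resolve: in hypothalamus that of Dpysl3 ran from -0.35 to 0.24 and that of Tubb3 from -0.86 to 0.53.

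Semaphorin signalling, which the CRMPs serve, had 2 of 13 tested genes lower in the mean of the 4 sets and 0 higher. These were the secreted ligands Sema3a (-0.81, SE 0.06, adjusted p = 6.27e-05) and Sema3e (-0.67, SE 0.08, adjusted p = 0.00144). Dpysl3 and Dpysl5 had mean differences of 0.04 (SE 0.07) and -0.02 (SE 0.07) in the same fit. Of 18 other immature neuron genes, and of the SoxC, doublecortin, CRMP, tubulin, stathmin, MARCKS and IGFBP relatives, 0 passed in the mean.

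**Figure D5:**
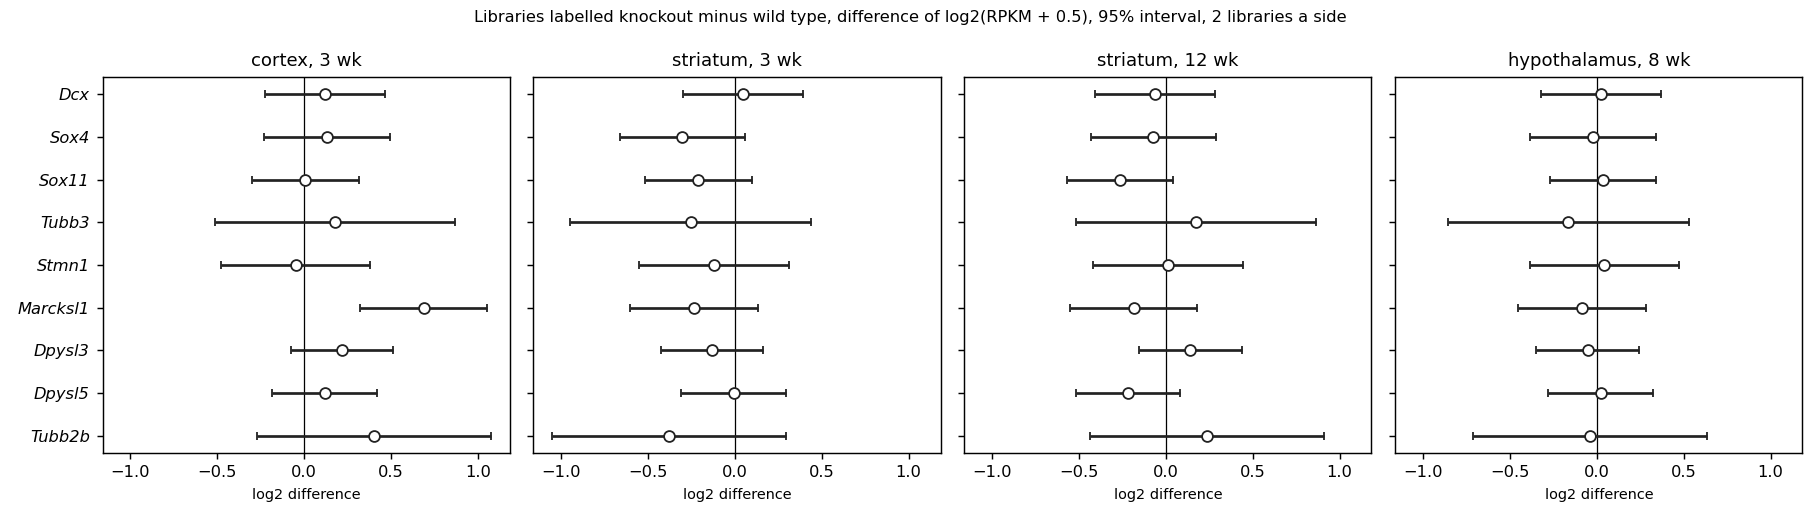
Differences of log2(RPKM + 0.5), libraries labelled knockout minus wild type, with 95% intervals for the 9 tested genes in the 4 sets, 2 libraries a side and one horizontal scale for all panels; every point is open because 0 passed. Marcksl1 in cortex at 0.69 is the only one whose interval lies wholly on one side of 0.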

How the data were processed

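The 16 RNA-seq libraries form 8 groups of 2 by their labels. The authors deposited RPKM values for 24176 gene symbols. Build mm9 and the tools TopHat2, cutadapt 1.6 and CASAVA 1.8.2 are named per the submitters' processing notes. How reads were counted, with or without strand, how multiply matching reads were treated and what RPKM was scaled to is not stated in the labels, so overlapping and near-identical genes are uncertain. Depth was estimated from RPKM steps in 299 to 384 single-exon genes per library with GENCODE M21 lengths; 50.0% to 61.0% of their values came out as whole reads within 0.05 read, and the reads are used for depth statements only.

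On the log2(RPKM + 0.5) scale, which understates changes of low genes, limma 3.58.1 (R 4.3.3) fitted a mean per group over all 16 libraries with a variance trend. The 12348 genes tested reached 1 RPKM in 2 or more libraries (8 residual degrees of freedom). P-values were adjusted by Benjamini-Hochberg over all genes within each of 11 comparisons, at a threshold of 0.05. The fit was tested on simulated data. The members, relatives, lists and naming rules were chosen with earlier results of these data known. All members and family relatives may be named; of each other list, the 4 genes of smallest p in the age comparison of striatum, and of the semaphorin list also the 2 of smallest p in the mean of the knockout comparisons; and the 10 genes most like the mean profile among those at 5 RPKM or more. The fit was repeated with another pseudocount, filter, scaling or threshold, no variance trend, fits of the compared libraries alone, a replicate block and leaving out each library. Promoter sequences are from RefSeq. Lists of endothelial, cortical excitatory and choroid plexus genes had 2 lower and 1 higher of 8, 1 lower of 10 and 2 lower of 3 tested genes with age. A gene of the neuroblast and progenitor list is not reported here.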

Additional observations from a re-analysis of the deposited data

Results flagged for a closer look

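In 3 cases the genotype labels were separated in opposite directions between sets, with no overlap of libraries in either set. How many of all genes do so was not counted, so these cases are not set against a background. Within single sets 8.16% to 24.6% of all genes were lower without overlap and 9.3% to 19.9% higher. The difference between sets was also estimated by limma, and none passed over all genes. Marcksl1 had a knockout effect that was higher in cortex than in striatum at 3 weeks by 0.92 on the log2 scale (SE 0.24, adjusted p = 0.406), and higher in cortex than in striatum at 12 weeks by 0.87 (SE 0.24, adjusted p = 0.994). The cortical libraries labelled knockout were at 56.4 and 39.0 RPKM against 27.9 and 30.0, whereas in both striatal sets Marcksl1 was lower in the libraries labelled knockout. The Dpysl3 effect in striatum at 3 weeks minus that at 12 weeks was -0.27 (SE 0.19, adjusted p = 0.559).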

How the results depend on the processing

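Of 602 values of single members under alternatives, 553 kept their direction and their side of the threshold, 24 lost the call, 15 gained one and 10 turned in sign. The count of members lower with age in the libraries labelled knockout was 3 as reported and 1 to 3 when a library was left out, with 1 without replicate 1 at 12 weeks, where fewer samples were fitted. The count of members higher in cortex than in striatum was 5 and became 3 with a filter of 5 RPKM, under which fewer genes were tested. Tubb2b with age lay between -0.0053 (without wild-type replicate 2 at 12 weeks) and 0.32 (without replicate 1) when a library was left out. Tubb3 in cortex against striatum, at -0.03 as reported, turned to 0.0074 with median-ratio scaling, 0.14 with an equal sum of RPKM, and lay between -0.28 and 0.23 without single libraries (0.069 without cortical wild-type replicate 1, 0.23 without cortical knockout replicate 2, 0.065 without striatal wild-type replicate 2, 0.13 without striatal knockout replicate 2). In hypothalamus against adult striatum, Dcx turned to -0.083 with median-ratio scaling, and Sox11 to -0.17 with that scaling and to -0.043 with an equal sum. The cause of these changes was not tested.

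The replicate numbers share only a number: replicate differences of the 2 genotype labels correlated at -0.34 in cortex, 0.44 in striatum at 3 weeks, -0.22 in striatum at 12 weeks and 0.15 in hypothalamus, in single pairs of groups. With a replicate block the members called were 4 for age, 6 for cortex against striatum (Sox11 lower in cortex, adjusted p = 0.0409) and 7 for hypothalamus (Dcx lost, adjusted p = 0.0656), and 0 in each knockout comparison. Over all genes the block took the mean of the knockout comparisons from 46 calls to 12. A crossed block, chosen after seeing the data, gave 94 there and 0 members. The 2 libraries a group limit what can be seen, and Igfbpl1 is limited by about 7.35 to 99.9 reads a library.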
